A study of Caenorhabditis elegans with 92 samples.

Results

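comt-5 (Y40B10A.7) and the genes around it form a small stretch of chromosome V in Caenorhabditis elegans in which 3 genes carry the name comt, after catechol-O-methyltransferase. The members were all genes whose sequence name begins with Y40B10A. in both deposited tables of transcript levels, 9 of 20376 genes. The locus was picked because comt-5 was much higher in larvae homozygous for a mutation in kle-2, which encodes a subunit of condensin II, than in heterozygous larvae, so the homozygous and heterozygous values of comt-5 are given as a description without a test. By fitted change it stood at rank 3 of 12837 genes tested, below pud-3 and K04F1.9 and just above nduc-2.

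RNA-seq, the sequencing of complementary DNA made from messenger RNA, was done on whole animals in 11 libraries. Wild-type embryos of mixed stages, from the strain N2 grown at 20 °C and freed from gravid adults by bleaching, gave 5 libraries. Larvae of the strain VC768 gave 3 heterozygous and 3 homozygous libraries. In this strain the deletion allele ok1151 of kle-2 on chromosome III is kept over the balancer hT2, a rearrangement of chromosomes I and III (I;III) that carries bli-4(e937), let-?(q782) and the green fluorescent reporter qIs48. About 500 larvae per sample were picked by hand, those that fluoresced as heterozygotes (kle-2/hT2) and those that did not as homozygotes (kle-2/kle-2). Both genotypes were offspring of heterozygous mothers, were synchronised as L1 larvae and were then grown at room temperature, and the labels give their stage as L3 in one place and as L2-L3 in another. Only the heterozygotes carried the balancer and no wild-type larvae were sequenced. The homozygotes are not without KLE-2 from the start, because the egg receives it from a heterozygous mother, and as adults they are sterile. Nothing states that the libraries of a group came from separate cultures, so p-values measure the spread between these libraries only.

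Catechol-O-methyltransferases move a methyl group from S-adenosylmethionine to a catechol, and in mammals they inactivate dopamine and related catecholamines. In C. elegans dopamine is made by a few sensory neurons and acts on movement, feeding and egg laying. In whole animals, fewer cells of a type and less RNA per cell cannot be told apart.

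Values are FPKM, in which sequenced fragments are divided by the length of the transcript and by the mapped total of the library. They allow levels of different genes to be compared per length. In the RefSeq gene order the members run srab-23, Y40B10A.4, Y40B10A.5, comt-4, comt-5, comt-3, nhr-86, lbp-9 and Y40B10A.9. comt-3 was the immediate right neighbour of comt-5, and 1 further protein-coding gene, not analysed here, lay between comt-5 and comt-4. Relative depth, read from the step that a single read makes in genes of low level, ranged from 0.504 to 1.24 of that of heterozygous replicate 2 over the 11 libraries. kle-2 itself was lower in every homozygous library (3.54, 4.24 and 6.59 FPKM) than in every heterozygous library (7.83, 10.0 and 12.8 FPKM), with a log2 fold change of -0.97 (limma adjusted p = 0.31, and 0.013 where the number of the replicate entered as a block).

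comt-5 was low in embryos, several-fold higher in heterozygous larvae and much higher again in homozygous larvae. Its level in the 5 embryo libraries was 0.743, 2.94, 5.02, 3.44 and 1.37 FPKM (2.70 ± 1.70, SD, n = 5). Heterozygous larvae had 9.70, 11.4 and 6.29 FPKM (9.13 ± 2.60, SD, n = 3), and homozygous larvae had 58.1, 89.5 and 52.3 FPKM (66.6 ± 20.0, SD, n = 3). The ranges of the 3 groups did not overlap, and the wide gap was between the larval genotypes, where the lowest homozygous library exceeded the highest heterozygous one several times over. The homozygous mean was 7.29 times the heterozygous mean, and within replicates 1, 2 and 3 the ratio was 5.99, 7.85 and 8.31. On the log2(FPKM + 1) scale the difference was 2.73 (SE 0.28), and it lay between 2.50 and 2.90 under 13 other settings. The genes next to it in the ranking, on either side, were K04F1.9 at 2.80 (SE 0.39) and nduc-2 at 2.45 (SE 1.52).

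The level of comt-5 relative to other genes moved with it. In embryos 45.3% of the 20376 genes had a lower mean FPKM than comt-5, against 62.5% in heterozygous and 90.8% in homozygous larvae. Among the 9 members it was at rank 5 in embryos, rank 4 in heterozygous larvae and rank 2 in homozygous larvae, behind lbp-9. The values of comt-5 resolved into whole reads, with 8, 27, 77, 65 and 31 reads in the embryo libraries. In heterozygous larvae there were 131, 208 and 80 reads, and in homozygous larvae 539, 1324 and 837. The embryo levels thus rested on 77 recovered reads or fewer, with the fewest, 8, in replicate 1, and the larval levels on 80 or more.

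**Figure D1:**
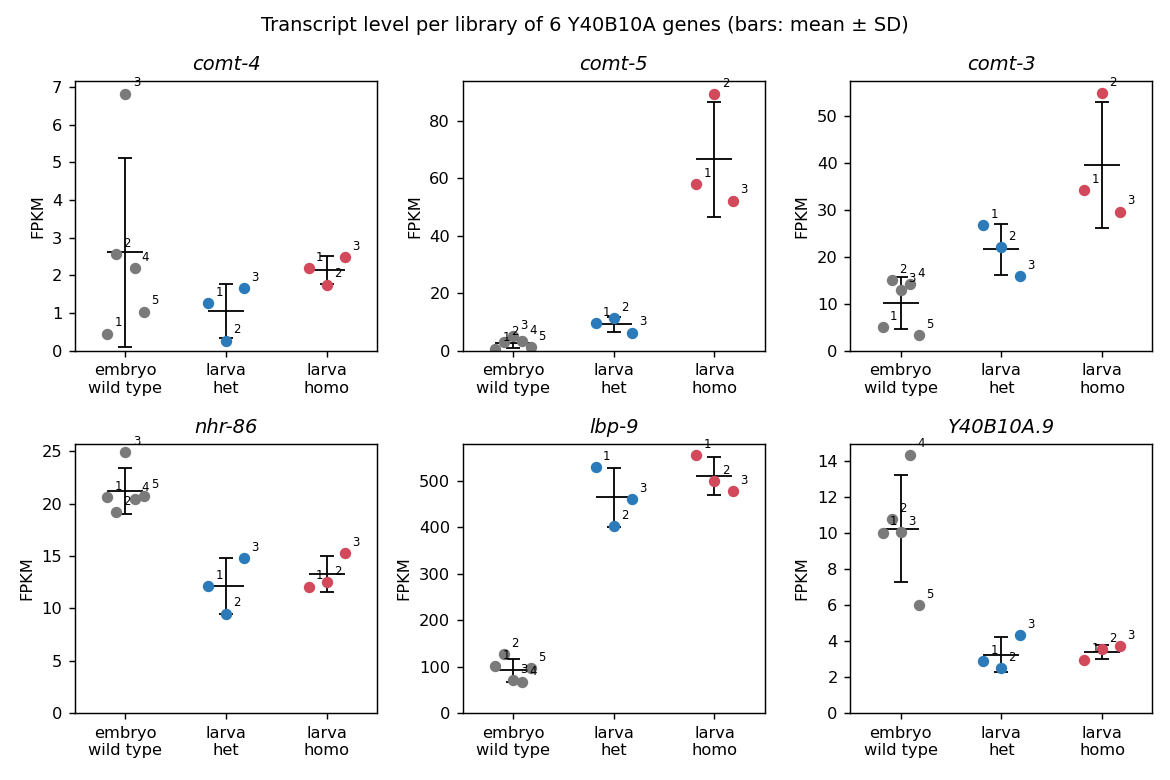
FPKM (vertical axes from 0, a different scale in each panel) of the 6 members that passed the filter on low values, in 5 wild-type embryo, 3 heterozygous and 3 homozygous larval libraries. Points are libraries with their replicate numbers, and bars are the mean ± SD. comt-5 lies between 52.3 and 89.5 FPKM in homozygous larvae and at or below 11.4 FPKM elsewhere, whereas nhr-86, lbp-9 and Y40B10A.9 have overlapping larval groups.

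comt-3 (Y40B10A.2), the adjacent catechol-O-methyltransferase gene, had the same order of groups with smaller steps. It was at 4.99, 15.0, 13.03, 14.2 and 3.26 FPKM in embryos (10.1 ± 5.53, SD, n = 5). Heterozygous larvae had 26.8, 22.1 and 16.0 FPKM (21.6 ± 5.45, SD, n = 3) and homozygous larvae 34.2, 54.9 and 29.7 FPKM (39.6 ± 13.5, SD, n = 3). None of the 3 ranges overlapped, but neighbouring groups nearly touched, with embryos reaching 15.0 against a lowest heterozygous value of 16.0, and heterozygotes reaching 26.8 against a lowest homozygous value of 29.7 FPKM. The homozygous mean was 1.83 times the heterozygous mean, and the ratio within replicates 1, 2 and 3 was 1.27, 2.49 and 1.86. In the limma fit over all genes the log2 fold change was 0.82 (SE 0.29), and it did not pass the threshold (adjusted p = 0.44). With the replicate number as a block the standard error was 0.19 and the adjusted p was 0.062, which also missed it.

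comt-4 (Y40B10A.6), on the other side of comt-5, was expressed at a low level in every group. Embryos had 0.452, 2.56, 6.82, 2.19 and 1.04 FPKM (2.61 ± 2.50, SD, n = 5), more spread for its mean than for any other member that passed the filter. Heterozygous larvae had 1.26, 0.267 and 1.66 FPKM (1.06 ± 0.717, SD, n = 3) and homozygous larvae 2.19, 1.75 and 2.48 FPKM (2.14 ± 0.365, SD, n = 3). The larval groups did not overlap, since the highest heterozygous library was just under the lowest homozygous one. All larval libraries but heterozygous replicate 2, which was below every embryo library, lay inside the range of the embryos. These values rest on 21, 6 and 26 reads in heterozygotes and 25, 32 and 49 reads in homozygotes. The ratio within replicates was 1.73, 6.58 and 1.50, and the large value in replicate 2 came from the library with 6 reads. The log2 fold change was 0.67 (SE 0.32, limma adjusted p = 0.67), and it was 0.35 (adjusted p = 1.00) without heterozygous replicate 2. With the block the adjusted p was 0.14.

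The remaining neighbours gave larval groups that overlapped. nhr-86 (Y40B10A.8) encodes a nuclear hormone receptor, a class of DNA-binding transcription factors. It had 12.1, 9.51 and 14.8 FPKM in heterozygotes and 12.1, 12.5 and 15.3 FPKM in homozygotes. lbp-9 (Y40B10A.1), a member of the family of small intracellular lipid-binding proteins, was the most abundant member in all 3 groups. It had 529, 402 and 460 FPKM in heterozygotes and 555, 498 and 477 FPKM in homozygotes. Y40B10A.9 had 2.91, 2.52 and 4.34 FPKM in heterozygotes and 2.97, 3.56 and 3.71 FPKM in homozygotes. In each of these genes the genotype ranges lay over each other. The log2 fold changes were 0.13 (SE 0.22) for nhr-86, 0.14 (SE 0.16) for lbp-9 and 0.07 (SE 0.24) for Y40B10A.9, with limma adjusted p-values of 1.00, 0.99 and 1.00. The signs for nhr-86 and Y40B10A.9 turned without heterozygous replicate 2 (to -0.018 and -0.054). With the block the adjusted p-values were 0.53, 0.35 and 0.82.

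Of the 8 neighbours of comt-5, 5 passed the filter on low values and 0 of these 5 passed the threshold of 0.05 between the larval genotypes, both without and with the replicate block. Over all genes 15 of 12837 passed it (0.117%), and 1082 passed it with the block (8.43%). The 5 neighbours had a median log2 fold change of 0.14, beside -0.0042 over all genes tested. At an unadjusted p under 0.05 there were 1079 genes without the block. Among them comt-3 (p = 0.021, limma adjusted p = 0.44) was the 1 neighbour. With the block 2 of the 5 neighbours were under 0.05, comt-3 (p = 0.0064, limma adjusted p = 0.062) and comt-4 (p = 0.028, adjusted p = 0.14). The number over all genes is not given for that setting. Larval groups that did not overlap, with homozygotes higher, were found in comt-3, comt-4 and comt-5, and in 7.29% of all genes tested. comt-5 was chosen on this comparison, and nothing is read from that share for it. By fitted change comt-3 stood at rank 359 and comt-4 at rank 592 of the 12837 genes.

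**Figure D2:**
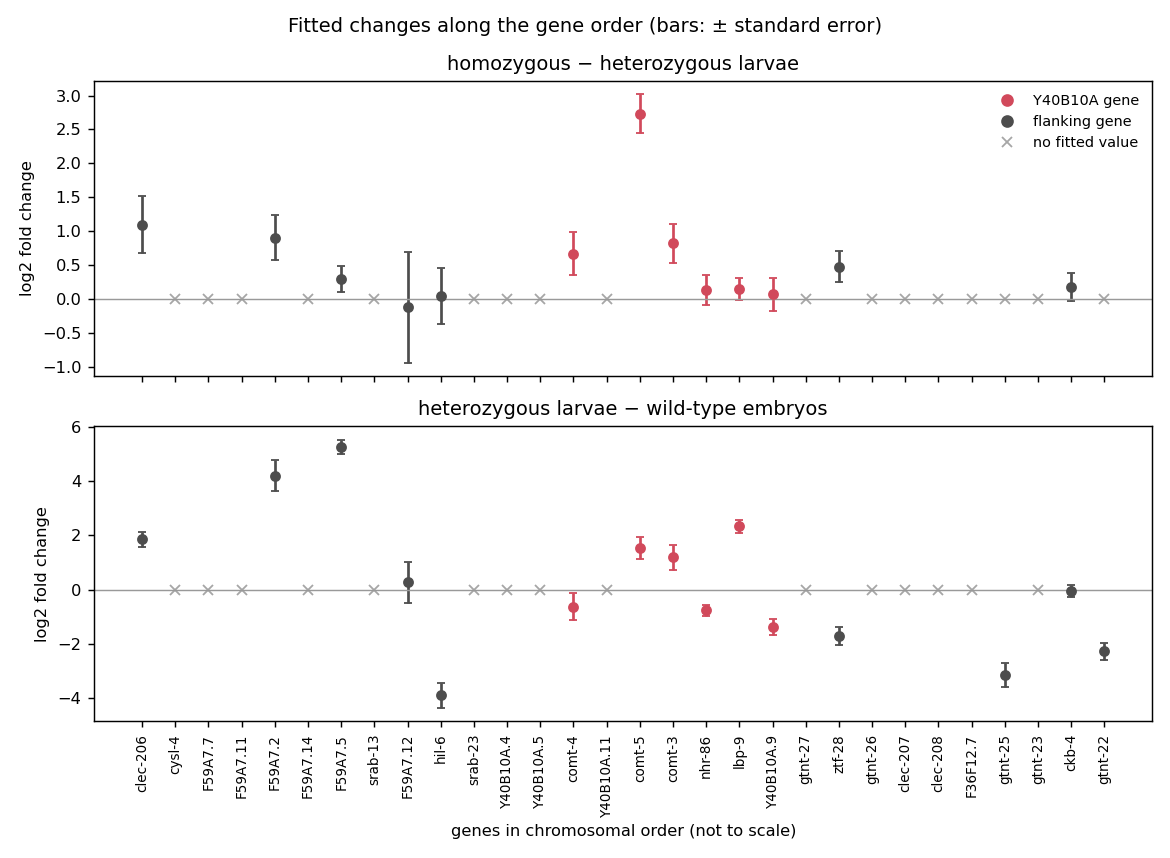
Fitted log2 fold changes on the log2(FPKM + 1) scale (vertical axes) of the members in red and of flanking genes in grey, in chromosomal order and not to scale. Error bars are standard errors, and crosses mark genes without a fitted value. Between the larval genotypes comt-5 stands at 2.73, comt-3 at 0.82 and comt-4 at 0.67, and the right-hand members lie between 0.07 and 0.14.

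The ratio of comt-5 to comt-3 within a library does not depend on the scaling between libraries. It was 0.149, 0.196, 0.386, 0.242 and 0.420 in embryos and 0.361, 0.516 and 0.394 in heterozygous larvae. In homozygous larvae it was 1.70, 1.63 and 1.76. comt-3 exceeded comt-5 in all 8 embryo and heterozygous libraries and was below it in all 3 homozygous libraries. The homozygous ratios (1.70 ± 0.066, SD, n = 3) spread by less, relative to their mean, than the levels of either gene, and the pattern is a description, since it uses the comparison on which comt-5 was chosen. Relative to comt-4, comt-5 was at 0.736 to 1.65 in embryos, 3.80 to 42.8 in heterozygotes and 21.1 to 51.0 in homozygotes, and the upper end in heterozygotes came from the library with 6 comt-4 reads.

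**Figure D3:**
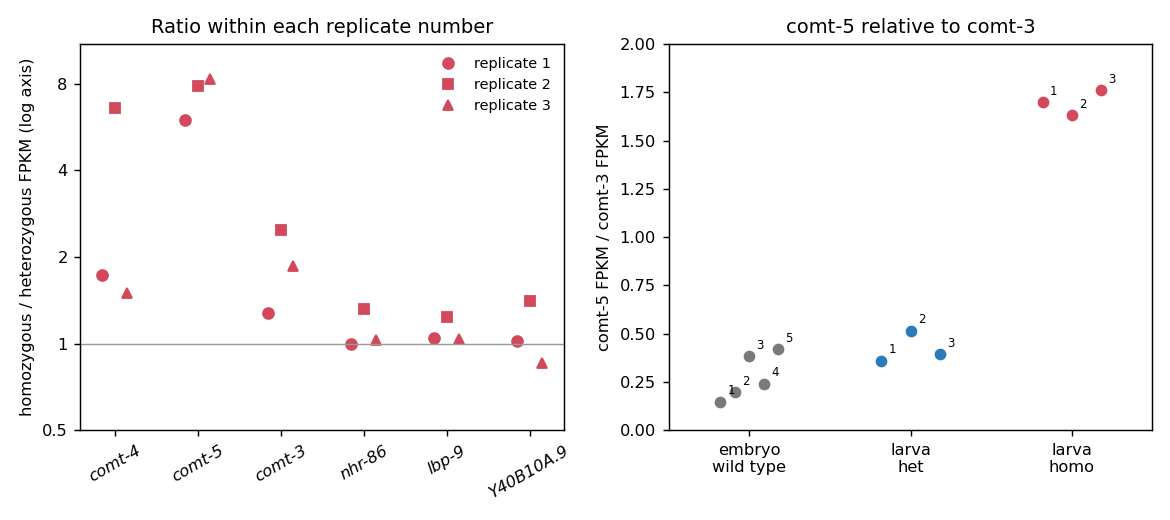
Left, the ratio of homozygous to heterozygous FPKM within each replicate number (log axis) for 6 members. Right, the ratio of comt-5 to comt-3 FPKM in each library, with replicate numbers at the points. The comt-5 ratios between genotypes are 5.99 to 8.31 and those of comt-3 are 1.27 to 2.49, and comt-5 exceeds comt-3 in the homozygous larvae only.

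The 3 other members were near the limit of detection. srab-23 (Y40B10A.3), of a family of chemoreceptor genes, was at 0 in all 6 larval libraries, where 3 reads would have corresponded to 0.212 to 0.417 FPKM. In embryos it had 0.359, 0.281, 0.168, 0.0683 and 0.456 FPKM, from 3, 2, 2, 1 and 8 reads. Y40B10A.4, annotated as a pseudogene, was above 0 in embryo replicate 1 alone (0.0398 FPKM). Y40B10A.5 had at most 3 reads in a library and reached 0.202 FPKM. These 3 genes were below the filter of the comparisons reported here. Without the filter srab-23 was called lower in heterozygous larvae than in embryos (log2 fold change -0.33, limma adjusted p = 0.027), with larval limits that lay within the range of the embryo values. For Y40B10A.4 and Y40B10A.5 no difference was detectable at this depth.

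Heterozygous larvae were also compared with wild-type embryos, to see how the locus differs between the stages. Stage, strain, balancer and preparation differ together between these groups and cannot be told apart, and the heterozygous libraries are the ones against which comt-5 was chosen. Of the 6 members tested, 5 passed the threshold, 3 higher in larvae and 2 lower, where 65.1% of 13528 genes passed it, 22.0% higher and 43.1% lower. The median log2 fold change of the 5 neighbours tested was -0.63, beside -0.45 over all genes, and this general shift applies to each value that follows.

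comt-5 was 3.38 times higher in heterozygous larvae than in embryos by group means, with a log2 fold change of 1.55 (SE 0.41, limma adjusted p = 0.0073). The call held in 16 of 16 alternative settings, with adjusted p-values of 0.0014 to 0.035. comt-3 was 2.14 times higher by means, with a log2 fold change of 1.19 (SE 0.46, limma adjusted p = 0.044). This call lay at the threshold and was lost in 8 of 16 alternatives, with adjusted p-values of 0.0040 to 0.15 over all 16. Leaving out embryo replicate 1, or heterozygous replicate 1, 2 or 3, gave limma adjusted p-values of 0.092, 0.15, 0.11 and 0.057. comt-4 did not pass the threshold, with a log2 fold change of -0.63 (SE 0.50, limma adjusted p = 0.29). After median centring the log2 fold changes were 2.05 for comt-5 (limma adjusted p = 0.0015), 1.69 for comt-3 (adjusted p = 0.0083) and -0.14 for comt-4 (adjusted p = 0.82).

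lbp-9 showed the widest step between the stages among the members. Embryos had 101, 128, 71.0, 68.0 and 97.2 FPKM (92.9 ± 24.4, SD, n = 5), all far below the 402 FPKM of the lowest heterozygous library. The heterozygous mean of 464 ± 63.2 FPKM (SD, n = 3) was 4.99 times the embryo mean, with a log2 fold change of 2.34 (SE 0.23, limma adjusted p = 1.6e-05). nhr-86 went the other way, with 20.6, 19.2, 24.9, 20.5 and 20.8 FPKM in embryos, above every larval library. Its log2 fold change of -0.77 (SE 0.20, limma adjusted p = 0.0068) was close to the general shift, and after median centring it was -0.27 (adjusted p = 0.24). Y40B10A.9 had 10.0, 10.7, 10.0, 14.3 and 5.99 FPKM in embryos, 3.14 times the heterozygous level by means. Its log2 fold change was -1.38 (SE 0.29, limma adjusted p = 0.0019), and after median centring it was -0.88 (adjusted p = 0.0082).

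The embryo libraries differed among themselves in the comt genes. Replicates 1 and 5 had the lowest levels of comt-3, comt-4 and comt-5, so that all 3 genes were at or below 4.99 FPKM there, while comt-3 stood between 13.03 and 15.0 FPKM in replicates 2, 3 and 4. The transcripts of pie-1 and mex-5, which mothers place in the egg and which fall away in later embryos, were highest in replicates 1 and 5. pie-1 was at 72.3, 40.6, 39.5, 50.4 and 110.0 FPKM in replicates 1 to 5, and mex-5 at 191, 88.3, 77.8, 110.1 and 177 FPKM. The summed level of the 4 genes on the list of early embryo markers ranged from 287 to 578 FPKM over the embryos. The part of this difference between embryo libraries in the values of the comt genes was not tested. In a comparison added after the data were seen, with embryo replicates 2, 3 and 4 only, the log2 fold change from embryos to heterozygous larvae was 0.56 for comt-3 (limma adjusted p = 0.051) and -1.18 for comt-4 (adjusted p = 0.030). comt-4 thus passed the threshold as lower in larvae in that setting only, which was not centred on the median, and comt-5 passed it in both.

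**Figure D4:**
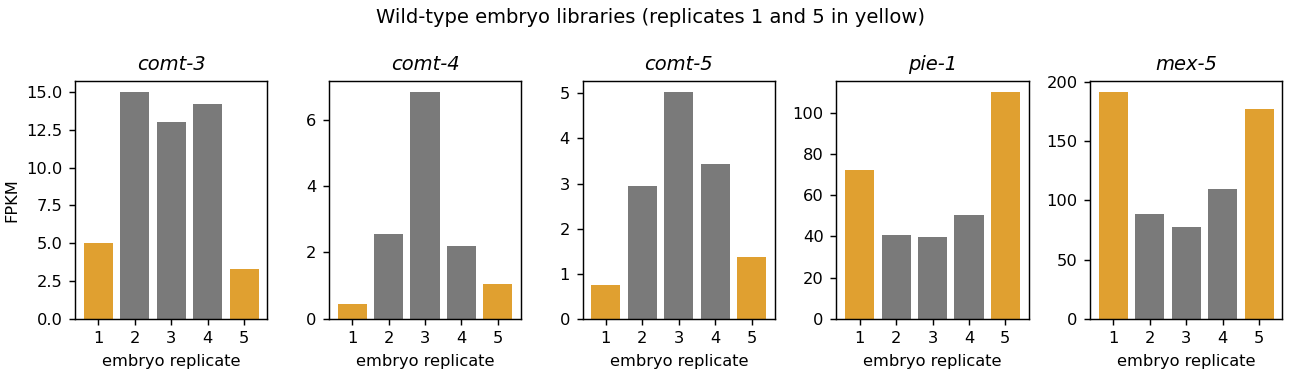
FPKM of comt-3, comt-4, comt-5 and of the early embryo transcripts pie-1 and mex-5 in the 5 wild-type embryo libraries (bars, axes from 0, a different scale in each panel), with replicates 1 and 5 in yellow. The comt genes are lowest in replicates 1 and 5, where pie-1 (72.3 and 110.0 FPKM) and mex-5 (191 and 177 FPKM) are highest.

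Beyond the locus, the comt family has a further pair of genes. comt-1, on the X chromosome, had 6.75, 12.03 and 4.32 FPKM in heterozygotes and 4.22, 9.50 and 2.54 FPKM in homozygotes. It was lower in the homozygote of each replicate number, while the groups overlapped (log2 fold change -0.49, limma adjusted p = 0.95, and 0.076 with the block). Between embryos, where it was at 0.539 to 1.06 FPKM, and heterozygous larvae it rose (log2 fold change 2.19, adjusted p = 1.2e-04). comt-2, on chromosome V outside the locus, stayed at or below 0.671 FPKM in larvae, had 0.471 to 3.16 FPKM in embryos, and was below the filter. How reads that match more than 1 comt gene were assigned is not given in the sources used here, beyond the use of default parameters. The values of comt-3, comt-4 and comt-5 came out as whole reads in every library, to within 0.02 of a read. That cannot show whether reads were shared between these genes, since a read unit is known only up to a whole factor.

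No gene on a list of the dopamine pathway passed the threshold between the larval genotypes. Of its 10 genes, 0 passed in the limma fit without or with the block, beside 0.117% and 8.43% of all genes. At an unadjusted p under 0.05 there were 0 without the block and 2 with it. Their log2 fold changes lay between -0.28 and 0.49 with a median of -0.07, and in none of the 10 were the genotypes separate. The highest was cat-4, which encodes the GTP cyclohydrolase that makes a cofactor of dopamine and serotonin synthesis, at 15.7 ± 4.26 FPKM in heterozygotes and 22.4 ± 4.46 FPKM in homozygotes (SD, n = 3 each). With the block the limma adjusted p of cat-4 was 0.055. The lowest was cat-2, the tyrosine hydroxylase of the dopaminergic neurons, at 2.36 ± 1.04 FPKM in heterozygotes and 1.68 ± 0.267 FPKM in homozygotes (SD, n = 3 each). From embryos to heterozygous larvae 4 of the 9 tested rose, namely cat-4, the receptor genes dop-1 and dop-3, and amx-2, a monoamine oxidase gene, and 0 fell, beside 22.0% and 43.1% of all genes. With the block 6 of the list rose, beside 23.7% of all genes. The median of the 9 was 0.80, beside -0.45 over all genes.

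The 20 protein-coding genes on either side of the members, 10 on each, were mostly below the filter in larvae. Of the 19 with values, 7 were tested between the larval genotypes, and 0 passed the threshold in the limma fit, with 2 at an unadjusted p under 0.05. Their log2 fold changes ran from -0.12 to 1.10, with a median of 0.30 beside -0.0042 over all genes. With the block, clec-206, a C-type lectin gene 15 genes to the left of comt-5, rose by 1.10 (limma adjusted p = 0.014), and F59A7.2, 11 genes to the left, by 0.91 (adjusted p = 0.013). Of the 7 tested, these 2 were called higher with the block, beside 4.04% of all genes. F59A7.2 stood at 109.7 ± 28.8 FPKM in homozygotes (SD, n = 3). Its groups were separate by a narrow gap, from 74.4 FPKM in heterozygotes to 76.5 FPKM in homozygotes, while those of clec-206 overlapped. Separate groups with homozygotes higher were found in F59A7.2 and ztf-28, 2 of the 7, beside 7.29% of all genes. The first flanking genes to have a fitted value, hil-6 on the left and ztf-28 on the right, had log2 fold changes of 0.04 (SE 0.41) and 0.48 (SE 0.23), and neither passed the threshold with or without the block. From embryos to heterozygous larvae 9 of the flanking genes were tested, of which 3 rose and 4 fell, beside 22.0% and 43.1% of all genes.

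Across all 11 libraries the genes whose log2(FPKM + 1) followed comt-5 most closely were K04F1.9 (Pearson r = 0.97), act-1, asp-8, ipmk-1 and act-3 (each 0.96), of 13600 genes compared. act-1 and act-3 are near-identical actin genes that can share reads. comt-3 reached 0.90, at rank 75, and lbp-9 0.77, whereas comt-4 was at 0.18 and nhr-86 and Y40B10A.9 were at -0.65 and -0.69. Over the 6 larval libraries alone dbn-1, H37A05.4, nspc-10, unc-15 and let-767 came first, and comt-3 was at 0.89 (rank 265) and comt-4 at 0.56. These values describe libraries that fall into the study's groups, and any gene with the same order of groups scores high.

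Markers of several tissues were also compared between the larval genotypes, and 0 on any tissue list passed the threshold in the limma fit without the block. All 4 germline markers (pgl-1, glh-1, gld-1 and him-3) were higher in homozygotes without overlap, as were 7.29% of all genes, with a summed level of 72.7 to 78.6 FPKM in heterozygotes and 94.3 to 109 FPKM in homozygotes, and 0 of the 4 passed the threshold without the block and 3 with it, as 4.04% of all genes did. The 4 hypodermal markers summed to 372 to 1257 FPKM in heterozygotes and 204 to 675 FPKM in homozygotes, and 3 of them were lower with the block, as were 4.39% of all genes. Those of body muscle summed to 1781 to 1876 and 2248 to 2299 FPKM, and those of intestine to 1294 to 1511 and 1683 to 1948 FPKM. With the block 1 of 3 in body muscle (myo-3) and 1 of 4 in intestine (act-5) were higher, as were 4.04% of all genes. The body muscle sum rested mostly on unc-54, with means of 1681 and 2074 FPKM. myo-3 was higher in homozygotes as well (log2 fold change 0.55), and hlh-1 was not (-0.07). The intestinal sum rested on act-5, an intestinal actin gene, while the means of elt-2 and ifb-2 were lower in homozygotes (log2 fold changes of -0.58 and -0.19) and the median of the 4 was -0.0016. The 4 neuronal markers summed to 315 to 405 and 303 to 397 FPKM and the 3 pharyngeal ones to 272 to 397 and 400 to 432 FPKM, and 0 of these passed with or without the block, with 1 pharyngeal and 0 neuronal markers at an unadjusted p under 0.05 in the limma fit without it. No marker of these lists was at 0 in a larval library, and their part in the level of comt-5 was not tested. The markers myo-2 (pharynx) and ges-1 (intestine) are, like pes-10, promoter donors of the reporter qIs48, which only heterozygotes carried. pes-10 was at 6.49 ± 0.975 FPKM in heterozygotes and 0.285 ± 0.032 FPKM in homozygotes (SD, n = 3 each). The part of the reporter in these values was not tested.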

How the data were processed

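The authors aligned single-end, strand-specific reads of poly(A)-selected RNA to the WS220 genome with tophat and deposited FPKM values per gene from Cufflinks 2.0.2, scaled within each library. Their own genotype test used DESeq2 on counts, which were not analysed here. Both tables held the same 20376 genes after 2 repeated entries were left out. The members and gene lists were chosen with earlier results of these data known.

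Here log2(FPKM + 1) was fitted, for genes whose FPKM averaged 1 or more over the libraries compared, with limma 3.58.1 (trended variance) in R 4.3.3, with Benjamini-Hochberg adjustment over all genes fitted and a threshold of 0.05. Fold changes on this scale understate those of low genes. The fit without the block was tested on simulated data. Its libraries were drawn independently, so that test does not cover larval libraries paired by replicate number. Each genotype or stage comparison used its own libraries only.

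The replicate numbers paired the larval libraries. Deviations from group means correlated at 0.44, 0.55 and 0.62 for equal numbers and at -0.48 to -0.02 otherwise, and no source names the pairing, so blocked values are printed beside results. Relative depth and whole reads were recovered from the steps of low FPKM values under 3, with a tolerance of 0.02 reads. A read unit is known only up to a whole factor, so a recovered number is the smallest that fits, and it covers counting error only. It was not resolved for nhr-86, lbp-9 and Y40B10A.4.

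Named genes were all members, kle-2, the comt family, 10 dopamine pathway genes, 10 protein-coding genes on each side (those past a threshold, and others chosen after their values were seen), tissue markers, pes-10 and the 5 genes most similar to comt-5 in each set of libraries. Symbols and gene order came from RefSeq (WBcel235), whose coordinates were not used, as the build differs. Alternatives were the block, leaving out each library, no filter or one at a mean of 5 FPKM, centring on the median, quantile normalization, a pseudocount of 0.1, and a variance without trend. Chromatin data were not used here.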

Additional observations from a re-analysis of the deposited data

Results flagged for a closer look

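The 5 wild-type embryo values of each of the 9 members were searched as 1 group. In them, 2 values stood apart from the rest of their group by a gap that Dixon's test at the 95% level would pick out. Chance does so in about 1 of 20 groups. nhr-86 was at 24.9 FPKM in embryo replicate 3, with a gap to the next library of 0.721 of the group's range. Y40B10A.4, the pseudogene, was at 0.0398 FPKM in embryo replicate 1 and at 0 in the other embryo libraries, and its depth could not be resolved into reads. With 4 libraries at 0 the gap fills the range whatever the remaining value is. The rate of 1 of 20 does not apply there, and nothing is read from that flag.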

How the results depend on the processing

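The number of genes called between the larval genotypes depended on the processing more than the member values did. It was 15 as reported, 6 without the filter on low values, 36 after quantile normalization, 7 without the trend and 1082 with the replicate block. With single libraries left out it ranged from 0 to 28, with 0 without heterozygous replicate 2 or homozygous replicate 1, 4 without heterozygous replicate 1, 28 without heterozygous replicate 3 and 2 without homozygous replicate 2 or 3.

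Between the genotypes comt-5, which was given without a test, kept its direction in 13 of 13 alternatives. Of 63 alternative values of its neighbours, 61 kept their direction and side of the threshold. The exceptions were nhr-86 at -0.018 and Y40B10A.9 at -0.054, both without heterozygous replicate 2, and the cause was not tested. With single libraries left out these ranged from -0.018 to 0.28 and from -0.054 to 0.25. Of 95 alternative values between heterozygous larvae and embryos, 84 kept both and 10 lost their call, 8 for comt-3 and 2 for nhr-86. comt-3 lost it with a pseudocount of 0.1 (log2 fold change 1.30), without the filter (1.19), with the replicate block (1.01), without embryo replicate 1, without each heterozygous library and with embryo replicates 2, 3 and 4 only. nhr-86 lost it after quantile normalization (-0.24) and median centring (-0.27), and comt-4 gained a call with embryo replicates 2, 3 and 4 only, a setting chosen after seeing the data. Embryo and larval libraries share only a replicate number (same-number correlations of 0.13, -0.09 and 0.19), and with that block 9177 of 13563 genes passed in place of 8806 of 13528. Low read numbers limit comt-4, srab-23 and Y40B10A.5.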
